A study of Homo sapiens with 30 samples.

Results

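Delta47 is a human multiple myeloma cell line, a culture of malignant plasma cells, and the comparison described here set 3 libraries of its FOXM1 knockout clone 1 (KO1) against 3 libraries of unedited cells (WT). These 6 libraries, chosen by their labels, are part of a series of 30 samples. Cells of both groups grew in the same medium and carried no added vector. KO1 cells had received a ribonucleoprotein of Cas9 protein and a synthetic guide against exon 2 of FOXM1 by electroporation, and KO1 was then grown from limiting dilution, so the group is a single clone. A difference between KO1 and WT that belongs to this clone cannot be told apart from one that belongs to the edit. The second knockout clone, KO2, was made the same way and has 3 libraries; it serves here to show where KO1 differs from another clone. KO2 cells given a lentiviral FOXM1c expression vector and sorted on GFP (KO2R, 3 libraries) entered the statistical fit. Their values are given only for the slope with transcript length and for HK2.

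FOXM1 is a forkhead transcription factor that is made and phosphorylated as cells pass through the second gap phase of the cell cycle. With the MuvB complex and B-MYB (gene MYBL2) it binds promoters of genes needed for mitosis, many of which hold a short element called the cell cycle genes homology region (CHR). In plasma cell tumours high FOXM1 is known as a mark of proliferating disease. The 3 guide sequences below, given 5′ to 3′, are the only part of the edit that the sources used here spell out, and which of them gave KO1 is not stated. Guide 2 starts 1 base after guide 1, so these share all but their end bases, and guide 3 reads a different sequence.
FOXM1 guide 1: uugagaaucaguggccgacg
FOXM1 guide 2: ugagaaucaguggccgacgg
FOXM1 guide 3: uaaugaaaacuagcccccgu

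Values are the deposited expression values of each gene, in a unit that the Delta47 table does not name, with column totals of 534185 to 552748 in WT and 571762 to 578260 in KO1. They are no measure of sequencing depth, which cannot be read from these values. Of 17286 genes in the table, 10792 reached a value of 1 or more in at least 3 of the 6 libraries and were tested on the log2(value + 1) scale, and the other 6494 were not. Every fold change below is on that scale, which understates changes of genes with low values, and "rose" or "fell" means an adjusted p below 0.05 by limma-trend with Benjamini-Hochberg adjustment over all tested genes. Libraries within a group lay close together: the spread of a library's log2 values around the mean of the other 2 (SD over genes) was 0.106 to 0.124 in WT and 0.1 to 0.109 in KO1. Nothing in the labels says that the 3 libraries of a group came from separate cultures, and the spread behind each p-value may be technical. The cells matched their label: of 27 plasma cell genes in the table, 6 stayed below 1 in all 6 libraries, and the summed level of the list was 6120 to 6271 in WT and 6140 to 6241 in KO1. Of 11 T cell and NK cell genes, 10 were below 1 in all 6 libraries, as were all 9 myeloid and all 4 erythroid or megakaryocyte genes.

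Between KO1 and WT 5744 of 10792 genes changed (53.2%), 3150 upward (29.2%) and 2594 downward (24%). Most of these changes were small: 64 genes rose and 82 fell by at least 2-fold. The 3 KO1 libraries lay wholly above or wholly below the 3 WT libraries for 6479 genes (60%). Counts within a gene group are read against these shares. The median over all tested genes was a log2 difference of 0.02.

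The sign of the small changes followed transcript length. Over the 10652 tested genes with a length (the longest coding transcript of each symbol), split into 4 equal classes, the shortest class had a median log2 difference of 0.15 and the following classes 0.06, -0.01 and -0.12. Of the shortest class 1350 genes rose and 271 fell, and of the longest 331 rose and 1134 fell. Each KO1 library showed this slope: its median deviation from the WT mean was 0.14 to 0.15 in the shortest class and -0.14 to -0.09 in the longest. The WT libraries differed from each other along the same axis by less, from -0.05 to 0.04 in the shortest class and from -0.06 to 0.07 in the longest. The slope was weaker in KO2 (Spearman rho of length and log2 difference from WT -0.07, against -0.40 in KO1, across genes, which are not independent replicates; both comparisons use the same WT libraries). The slope was steeper in KO2R than in KO1. KO2R medians were 0.23 to 0.28 in the shortest class and -0.28 to -0.16 in the longest. When a lowess trend with length was taken out of each library, 5218 genes changed (48.4%), 2572 upward (23.8%) and 2646 downward (24.5%). Many gene groups that are short or long as a class are therefore given below with and without the trend.

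**Figure D1:**
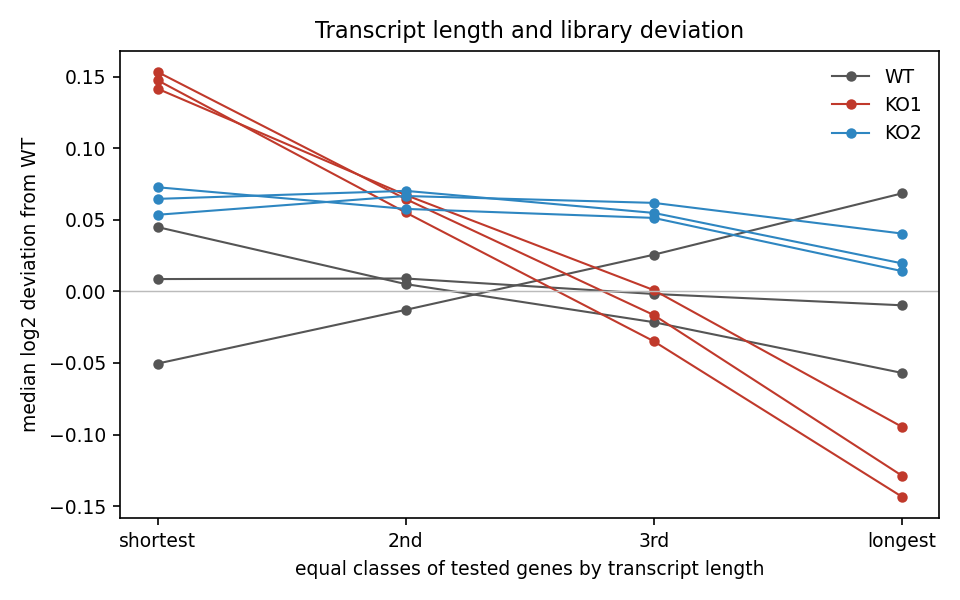
Median log2 deviation from the WT mean (y axis) of tested genes in 4 equal classes by transcript length (x axis), with 1 line per library. The 3 KO1 lines run from 0.14 to 0.15 in the shortest class down to between -0.14 and -0.09 in the longest, while WT and KO2 lines are flatter. KO2R libraries, which are not drawn, had a steeper slope.

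FOXM1 transcript fell in KO1 and stayed detectable. The WT libraries gave 87.1, 88.8 and 90.8 and the KO1 libraries 46.1, 49.8 and 47.97, so the groups do not overlap and the KO1 mean was 53.9% of the WT mean. The log2 difference was -0.88 ± 0.0398 (estimate ± standard error of the fit, as throughout, adjusted p = 2.69e-11). KO2 had a mean of 46.2, and KO1 differed from it by 0.05 (log2, adjusted p = 0.307, limma-trend). A transcript can persist after an edit that disrupts the protein, and these data hold no protein measurement.

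Genes of late cell cycle, which act in G2 and mitosis, moved in both directions. Of 73 listed genes, all of them tested, 32 fell and 18 rose, with a median log2 difference of -0.08; without the length trend 30 fell and 13 rose. Over all tested genes 24% fell and 29.2% rose. In a culture, fewer cells in a phase and less RNA of its genes per cell cannot be told apart.
PLK1, the kinase that drives mitotic entry and spindle assembly, stood at 167, 173 and 176 in WT and 88.8, 89.7 and 82.4 in KO1 (log2 difference -0.98 ± 0.041, adjusted p = 1.07e-11). CDC25B, the phosphatase that starts the activation of cyclin-dependent kinase 1, stood at 132, 139 and 135 in WT and 73.8, 79.3 and 73.5 in KO1 (-0.83 ± 0.0361, adjusted p = 1.6e-11). For both genes the highest KO1 library lay far below the lowest WT library, and the KO1 means were 50.5% and 55.9% of the WT means. CCNB1, which encodes cyclin B1, fell from 95.6, 95.1 and 95.5 to 62.1, 68.95 and 61.2 (-0.57 ± 0.0491, adjusted p = 7.08e-08). CENPA, the histone H3 variant that marks centromeres, fell from 23.5, 24.02 and 24.4 to 13.6, 12.6 and 13.8 (-0.80 ± 0.0466, adjusted p = 6.13e-10). None of these groups of libraries overlapped.

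MKI67, the gene of the Ki-67 proliferation antigen, fell from 46.8, 44.9 and 41.5 to 25.1, 25.3 and 24.98 (-0.79 ± 0.0457, adjusted p = 5.42e-10), and the difference was -0.59 once the length trend was removed. CENPF, a kinetochore protein, fell as well (-0.51 ± 0.0592 with the trend and -0.33 without it). NEK2, a centrosome kinase, went from 21.4, 19.6 and 18.8 to 14.2, 13.8 and 13.4 (-0.50 ± 0.0619, adjusted p = 5.03e-06). It lies in a run of 5 neighbouring tested genes, from SLC30A1 to DTL, that all fell (median -0.45). Other mitotic genes did not follow. AURKA stood at 40.1, 43.1 and 39.1 in WT and 42.8, 39.5 and 41.5 in KO1, with overlapping libraries and a log2 difference of 0.02 ± 0.0427 (adjusted p = 0.753) whose sign depended on the processing. TOP2A, the topoisomerase that untangles sister DNA, also overlapped, at 47.3, 44.3 and 42.1 against 46.1, 45.5 and 46.8 (0.05 ± 0.0505, adjusted p = 0.421).

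A pair of chromosomal passenger genes rose. BIRC5, which encodes survivin, stood at 60.8, 60.7 and 61.4 in WT and 80.2, 78.6 and 82.2 in KO1 (0.39 ± 0.0324, adjusted p = 4.35e-08). AURKB, the kinase that survivin recruits, stood at 89.1, 92.6 and 96.7 and 118, 119 and 115 (0.33 ± 0.0388, adjusted p = 2.24e-06), or 0.17 without the length trend. In KO2 the difference of AURKB from WT was 0.05, and KO1 was above KO2 by 0.28 (adjusted p = 2.84e-05, limma-trend). MYBL2, the partner of FOXM1 on mitotic promoters, rose from 325, 348 and 338 to 384, 403 and 385 (0.21 ± 0.0339, adjusted p = 6.11e-05). Of 15 tested genes of MuvB, the related DREAM complex and their partners 2 rose and 4 fell, against 4 and 4 without the length trend. With the trend 40.0% of the list changed, fewer than the 53.2% of all tested genes. MYBL2 rose with LIN37, a MuvB subunit. FOXM1 fell with the repressor genes E2F4 (-0.17 ± 0.0472, adjusted p = 0.00599, and -0.27 without the length trend) and E2F5 and with FZR1, an activator of mitotic protein degradation (-0.19 ± 0.0564, adjusted p = 0.00935). The calls of LIN37 and FZR1 were lost without the length trend. The call of LIN37 was also lost without KO1 replicate 2, WT replicate 1 or WT replicate 2, that of E2F5 without KO1 replicate 1 or any one WT library, and that of FZR1 without KO1 replicate 3 (-0.15). LIN37 and E2F5 are named after their values were seen.

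**Figure D2:**
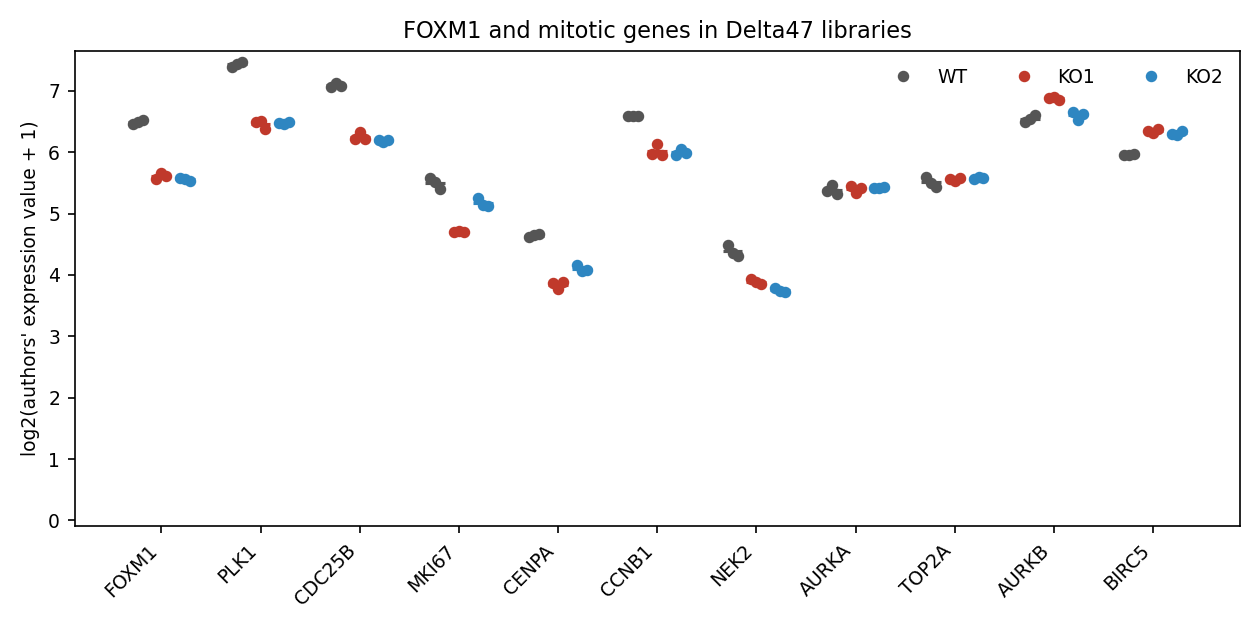
Expression of FOXM1 and 10 mitotic genes as log2(value + 1) (y axis); each point is 1 library of WT, KO1 or KO2 and the short bar is the group mean. The KO1 points of FOXM1, PLK1, CDC25B, MKI67, CENPA, CCNB1 and NEK2 lie below all WT points, those of AURKA and TOP2A overlap WT, and those of AURKB and BIRC5 lie above.

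Promoters were read because FOXM1 complexes are known to act through the CHR element, here the letters TTTGAA on either strand. Of 63 late cell cycle genes with a promoter sequence of 300 bases, 68.3% held TTTGAA, against 9.5% of the promoters of tested genes and 15.4% of all promoters in the table. By direction, it was in 20 of 29 promoters of genes that fell (69.0%), 10 of 14 of genes that rose (71.4%) and 13 of 20 of genes that were not called (65.0%), shares that were not tested against each other. Of the G1/S genes 2.17% held it. A match describes these letters only and is not evidence that a factor bound there. The upstream parts of 3 promoters of genes that fell were chosen because they hold the element, and are shown with the CHR letters in capitals. They end at the base before the start site, and come from RefSeq on GRCh38.p14. PLK1 and CENPA hold the element once and MKI67 holds it in 2 places; in each the nearest match begins within 29 bases of the start site. The same 250 upstream bases of CCNB1, CDC25B and NEK2, which also fell, hold no TTTGAA on either strand.
PLK1, chr16:23678639-23678888, plus strand: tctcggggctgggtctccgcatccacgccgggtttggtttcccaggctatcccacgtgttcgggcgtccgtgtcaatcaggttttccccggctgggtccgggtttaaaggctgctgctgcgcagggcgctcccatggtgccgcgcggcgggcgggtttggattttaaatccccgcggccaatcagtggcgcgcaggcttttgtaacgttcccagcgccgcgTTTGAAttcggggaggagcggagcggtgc
CENPA, chr2:26785806-26786055, plus strand: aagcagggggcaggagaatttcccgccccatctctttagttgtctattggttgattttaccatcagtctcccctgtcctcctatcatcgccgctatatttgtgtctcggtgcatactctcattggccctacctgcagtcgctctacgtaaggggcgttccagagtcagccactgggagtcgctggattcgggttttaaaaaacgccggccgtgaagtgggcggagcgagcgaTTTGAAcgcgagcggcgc
MKI67, chr10:128126424-128126673, minus strand: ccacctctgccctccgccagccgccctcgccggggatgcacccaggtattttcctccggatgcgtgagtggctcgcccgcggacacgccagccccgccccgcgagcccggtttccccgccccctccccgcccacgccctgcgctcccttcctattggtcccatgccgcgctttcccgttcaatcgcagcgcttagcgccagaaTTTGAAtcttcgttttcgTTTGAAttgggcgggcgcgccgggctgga

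Genes of the G1/S transition and DNA replication, most of them controlled by E2F factors, also moved both ways. Of 55 tested genes 18 fell and 7 rose (median -0.02), and without the length trend 24 fell and 6 rose. With the trend 45.5% of the list changed, beside 53.2% of all tested genes. MCM4, a subunit of the replicative helicase, had 79.5, 78.5 and 76.8 in WT and 49.1, 47.8 and 50.6 in KO1 (-0.66 ± 0.0419, adjusted p = 1.85e-09). CHAF1A, which loads histones on new DNA, fell (-0.47 ± 0.0347), UHRF1, which carries DNA methylation over to new strands (-0.52 ± 0.0462), and CCNA2, the cyclin of S phase and G2 (-0.46 ± 0.0457). Of 7 tested genes of recurrent myeloma translocations and cyclin D control, 5 fell and none rose: CDK6 (-0.77 ± 0.0635), CCND2 (-0.43 ± 0.0361), RB1 (-0.39 ± 0.061), MYC (-0.21 ± 0.0346) and NSD2, the last named after its value was seen. Without the length trend 5 of the 7 fell and none rose. CCND2, a D cyclin, stood at 69.3, 70.9 and 68.2 in WT and 50.4, 51.2 and 52.7 in KO1.
Of 27 tested p53 targets and cyclin-dependent kinase inhibitors 12 rose and 8 fell (8 and 7 without the trend). CDKN1B, which encodes p27 and brakes the G1/S step, rose from 40.7, 39.4 and 38.9 to 51.4, 48.6 and 50.7 (0.33 ± 0.0362, adjusted p = 1.09e-06). CDKN1A, which encodes p21, went the other way, from 34.8, 38.8 and 37.8 to 27.6, 30.2 and 28.3 (-0.36 ± 0.0563, adjusted p = 5.31e-05), and MDM2, the ubiquitin ligase that degrades p53, fell from 55.01, 51.2 and 48.5 to 28.3, 27.7 and 31.1 (-0.81 ± 0.0604). BTG2 (0.58 ± 0.0445) and DDB2 (0.41 ± 0.045) rose.
Replication-dependent histone genes split with the correction: 8 of 20 rose and 2 fell, but 4 rose and 7 fell without the length trend. With the trend the share of the list that changed was close to, and below, the 53.2% of all tested genes. Without the trend 23.8% of all tested genes rose and 24.5% fell. The median transcript of the histone list had 706.5 bases, against 3312 over all tested genes. Histone family members are close copies, and poly-A selection catches few of these transcripts. HIST1H2BK was lower (-0.32 ± 0.0382) and HIST1H2AM higher by 0.81 ± 0.109, or -0.58 and 0.55 without the trend.

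Glucose handling changed at its entry and at its exit. SLC2A1, the glucose transporter GLUT1, fell from 13.8, 13.97 and 13.8 to 4.47, 4.62 and 4.16, or 31.9% of the WT mean (-1.46 ± 0.0577, adjusted p = 4.96e-12). HK2, the hexokinase that traps glucose in the cell, fell from 42.6, 42.03 and 40.6 to 17.1, 16.8 and 18.1 (-1.22 ± 0.235, adjusted p = 0.000377). Its wide standard error comes mainly from the KO2R libraries in the fit, at 43.38, 45.76 and 16.25, and not from WT or KO1. LDHA, which makes lactate, fell from 1004, 979 and 982 to 656, 648 and 657 (-0.60 ± 0.0397, adjusted p = 3.17e-09). In all of these each KO1 library lay below each WT library, and KO2 means were 4.7, 22.5 and 562 in the same order. The lactate exporter gene SLC16A1, named after its value was seen, was the fourth member of the list that fell. Most other members moved the opposite way: 17 of 24 tested members of the list rose (14 without the length trend).
ENO1, which encodes enolase, rose from 2363, 2361 and 2363 to 3084, 3116 and 3116 (0.39 ± 0.0307, adjusted p = 1.99e-08), ALDOC, an aldolase, from 46.9, 48.5 and 53.9 to 90.8, 93.7 and 84.7 (0.84 ± 0.0539), and PKM, pyruvate kinase, by 0.22 ± 0.0369. The PKM call was lost under quantile scaling (0.08, adjusted p = 0.103, limma-trend). In KO2 the ENO1 difference from WT was 0.05, and KO1 exceeded KO2 by 0.35 (adjusted p = 2.83e-07, limma-trend).
Hypoxia-response genes were divided, with 7 of 19 tested genes up and 8 down. P4HA1, a collagen prolyl hydroxylase, rose by 0.67 ± 0.0463 and DDIT4, an inhibitor of mTOR signalling, by 0.72 ± 0.065, while ADM, the adrenomedullin gene, fell (-0.55 ± 0.0585) and STC2 (-0.60 ± 0.0671).

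Genes of oxidative phosphorylation mostly rose, but not once the length trend was removed. Of 59 tested subunits 46 rose and 3 fell, with a median of 0.19. Once the trend was removed 15 rose and 11 fell, with a median of 0.03. Over all tested genes 23.8% rose and 24.5% fell without the trend, with a median of -0.0007. The median transcript of the list has 1240 bases. NDUFB8, of complex I, stood at 168, 174 and 182 in WT and 257, 255 and 259 in KO1 (0.56 ± 0.0353, 0.34 without the trend), and ATP5PO, of the ATP synthase, was higher by 0.52 ± 0.0372 (0.32 without the trend). Among the genes that fell were SDHC, inside a stretch of neighbouring genes on chromosome 1 described below, and UQCRB, named after its value was seen.
Genes of mitochondrial fatty acid oxidation mostly rose, whether or not length was corrected for: 14 of 19 tested genes with the trend and 12 without it, with 1 and 2 falling. ACADVL, the first dehydrogenase for very long chains, rose from 119, 122 and 123 to 177, 173 and 176 (0.52 ± 0.0299, adjusted p = 4.97e-10). ECHS1, a hydratase of the pathway, rose by 0.43 ± 0.0333 and ETFB, which passes on the electrons, by 0.45 ± 0.0499. ACAA2, a thiolase of the pathway, rose from 41.5, 43.2 and 43.3 to 89.2, 85.4 and 89.8 (1.03 ± 0.0407). It lies in a stretch of chromosome 18 described below.
Of 21 genes of the tricarboxylic acid cycle 5 rose and 4 fell (1 and 8 without the trend), with CS, citrate synthase, lower (-0.13 ± 0.0297). With the trend 42.9% of this list changed, beside 53.2% of all tested genes. In cholesterol synthesis 8 of 24 tested genes fell and 5 rose (12 and 4 without the trend). With the trend 54.2% of that list changed, beside 53.2% of all tested genes. SQLE, the squalene epoxidase, fell from 107, 105 and 104 to 65.5, 62.9 and 67.7 (-0.68 ± 0.0473, adjusted p = 4.8e-09), and TM7SF2, a sterol reductase, rose by 0.69 ± 0.0489. PMVK (-0.66 ± 0.0376) and FDPS (-0.54 ± 0.0318) fell too, and belong to the chromosome 1 stretch, as does HSD17B7; outside the stretches the list holds 5 falls and 5 rises.

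**Figure D3:**
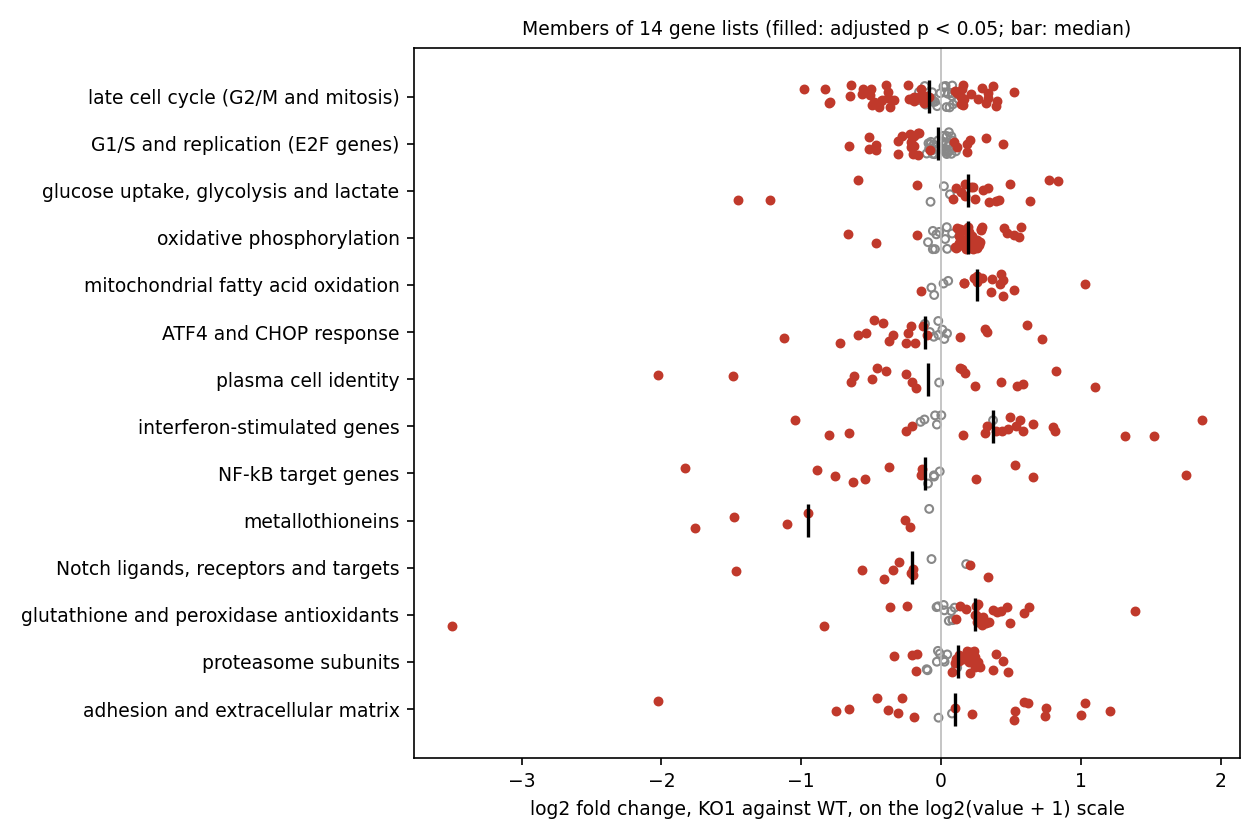
Log2 difference of KO1 from WT (x axis) for each tested member of 14 gene lists (y axis); filled points passed an adjusted p of 0.05, open points did not, and the black bar is the list's median. Metallothioneins sit lowest (median -0.95) and interferon-stimulated genes highest (0.37), while the lists of glucose handling and antioxidants have members far below a median above 0.

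Plasma cell genes changed in both directions: of 20 tested 9 rose, 10 fell and 1 was not called. SDC1, which encodes the plasma cell surface proteoglycan CD138, stood at 164, 176 and 173 in WT and 362, 377 and 366 in KO1 (1.10 ± 0.0336, adjusted p = 1.6e-13). The KO1 mean was 215% of the WT mean. MZB1, a chaperone for antibody assembly, rose from 369, 409 and 416 to 716, 709.6 and 684 (0.82 ± 0.0456, 0.61 without the trend) and CD38, an ectoenzyme and antibody target, from 54.8, 52.1 and 52.2 to 77.5, 75.03 and 80.3 (0.54 ± 0.04). NCAM1, the adhesion molecule CD56, fell to near zero, from 3.44, 3.18 and 2.84 to 0.02, 0.02 and 0.01 (-2.03 ± 0.0756). It passed the filter through WT only.
Of the lineage's transcription factors 3 that drive the plasma cell programme were lower, while TCF4, given below with its chromosomal neighbours, was higher. IRF4 went from 264, 257 and 245 to 192, 194 and 195 (-0.40 ± 0.0342, adjusted p = 7.21e-08), XBP1 from 633, 655 and 658 to 547, 544 and 540.5 (-0.25 ± 0.0286) and PRDM1, which encodes BLIMP-1, from 56.8, 55.5 and 55.9 to 50.01, 49.2 and 49.4 (-0.18 ± 0.039). In KO2 PRDM1 was above WT (0.18), and KO1 lay below KO2 (log2 difference -0.36, adjusted p = 2.43e-06, limma-trend). TNFRSF17, the survival receptor BCMA, fell from 122, 111 and 119 to 73.7, 74.8 and 74.8 (-0.65 ± 0.045, adjusted p = 5.22e-09).

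Among 24 tested genes whose products are drug or antibody targets in myeloma 10 rose and 9 fell. SLAMF7, the target of elotuzumab, fell from 95.2, 97.5 and 97.1 to 34.1, 32.9 and 34.1 (-1.49 ± 0.0393, adjusted p = 2.41e-14), with a KO2 mean of 14.3; KO1 was above KO2 by 1.18 (adjusted p = 2.77e-12, limma-trend). IL6R, the receptor of the myeloma growth factor interleukin 6, fell from 75.3, 72.5 and 75.3 to 27.1, 27.3 and 27.2 (-1.42 ± 0.0452, adjusted p = 3.05e-13), and CD48, a leukocyte adhesion molecule, from 379, 388 and 399 to 267, 253 and 264 (-0.57 ± 0.0323). These genes, and MCL1, all lie in stretches of neighbouring genes on chromosome 1 that fell together, which hold 5 of the 9 falls in this list. CXCR4, the homing receptor for bone marrow, rose from 13.3, 12.9 and 12.5 to 22.1, 20.7 and 24.4 (0.75 ± 0.062, adjusted p = 4.25e-08).
Of 6 tested B cell genes 2 rose, among them CD79B (0.78 ± 0.0504), and 4 fell, among them CR2 (-1.03 ± 0.0857) and BCL6 (-0.70 ± 0.081). Of 13 tested BCL2 family genes 8 rose and 2 fell. MCL1, the survival factor on which many myelomas depend, fell from 126, 122 and 121 to 91.4, 89.01 and 92.7 (-0.43 ± 0.033, adjusted p = 1.63e-08), and BMF, which promotes cell death (-0.61 ± 0.0746). BCL2L1, which encodes BCL-XL, rose from 12.3, 14.8 and 14.6 to 22.7, 24.2 and 22.3 (0.70 ± 0.0636, adjusted p = 1.37e-07); in KO2 its mean was 12.9, and KO1 was higher than KO2 by 0.79 (adjusted p = 8.8e-08, limma-trend). BCL2L11, the death gene BIM, rose by 0.45 ± 0.0382. BCL2 itself stood at 5.39, 4.92 and 5.04 in WT and 5.01, 4.79 and 5.37 in KO1 (-0.01 ± 0.0844, adjusted p = 0.895), while KO2 had 1.56 and KO1 exceeded it by 1.24 (adjusted p = 1.15e-08, limma-trend).

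Interferon-stimulated genes were higher more often than lower: 16 of 27 tested genes rose and 5 fell, with a median of 0.37, and 16 rose and 6 fell without the length trend. In KO2 6 rose and 10 fell. In the direct comparison of the clones 16 were higher and 4 lower in KO1, beside 17.5% and 24.9% of all tested genes. IFITM1, a membrane protein that blocks virus entry, stood at 1.66, 2.82 and 2.33 in WT and 11.3, 11.7 and 9.54 in KO1 (1.87 ± 0.141, adjusted p = 1.37e-08). OAS1, which senses double-stranded RNA, went from 1.92, 1.86 and 2.42 to 7.2, 8.6 and 7.66 (1.53 ± 0.0833, adjusted p = 2.98e-10). KO2 had means of 0.56 and 1.49 for these genes, below WT.
OAS2 rose from 23.8, 22.6 and 21.9 to 39.4, 39.6 and 42.04 (0.80 ± 0.0437) and MX2 from 29.3, 27.3 and 28.04 to 41.7, 40.95 and 41.4 (0.54 ± 0.0381). IFI16, a DNA sensor, fell from 46.9, 47.8 and 46.8 to 29.2, 29.2 and 30.3 (-0.66 ± 0.0392); it is in the chromosome 1 stretch. The other genes that fell were USP18, SAMD9L, IFIT1 and IFIH1, named after their values were seen.
In class I antigen presentation 6 of 12 tested genes rose and 1 fell, TAP1, named after its value was seen. HLA-C rose from 37.9, 41.6 and 40.3 to 67.9, 66.5 and 69.6 (0.75 ± 0.0386) and HLA-B by 0.72 ± 0.0756, values that close sequence copies make uncertain, and B2M, the shared light chain, by 0.25 ± 0.0293 (0.13 without the trend). Only 2 class II genes passed the filter, and HLA-DQB1 fell from 5.82, 6.32 and 5.46 to 1.25, 1.56 and 1.66 (-1.47 ± 0.094, adjusted p = 2.01e-09).

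NF-kB target genes, which respond to the survival signalling common in myeloma, fell in 8 and rose in 4 of 16 tested. TNFAIP3, which encodes the feedback inhibitor A20, went from 3.88, 3.93 and 4.01 to 1.7, 1.73 and 1.59 (-0.89 ± 0.0682, adjusted p = 1.74e-08). CCL3, a chemokine that myeloma cells use on bone, fell from 44.9, 41.6 and 46.5 to 12.2, 12.5 and 10.6 (-1.83 ± 0.0752, adjusted p = 7.9e-12). TNFAIP2 rose from 0.93, 1.49 and 1.35 to 6.51, 6.83 and 6.35 (1.75 ± 0.0834, adjusted p = 5.13e-11) and ICAM1, an adhesion ligand, by 0.53 ± 0.0471. Among 16 tested chemokines, cytokines and receptors 4 rose and 5 fell, with CXCL16 lower (-0.74 ± 0.0927). With the length trend 56.2% of this list changed, beside 53.2% of all tested genes. Without the trend 5 rose and 7 fell, beside 23.8% and 24.5% of all tested genes.

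Metallothioneins, small proteins that bind zinc and copper, were lower in KO1. Of 7 tested genes of metal handling 6 fell and none rose, with a median of -0.95 beside 0.02 for all tested genes. Without the length trend 6 fell and none rose, with a median of -1.17 beside -0.0007. MT2A stood at 118, 145 and 152 in WT and 41.2, 43.1 and 35.8 in KO1 (-1.76 ± 0.0951, adjusted p = 2.58e-10), MT1E at 113, 129.9 and 141 and 66.6, 66.1 and 63.3 (-0.95 ± 0.0582, adjusted p = 1.09e-09), and MT1A at 22.9, 23.1 and 25.4 and 7.77, 7.72 and 8.15 (-1.48 ± 0.15). No library of KO1 reached the lowest WT library. MT1G fell (-1.10 ± 0.161). The other members that fell were MT1X and the zinc exporter gene SLC30A1, and the one not called was MTF1, the zinc-sensing factor that switches metallothioneins on (-0.08); these 3 are named after their values were seen. Metallothionein genes are near copies, so the split of reads between them is uncertain. KO2 means were lower too, 22.6 for MT2A and 57.2 for MT1E.
The metal response element is known as TGCACNC or TGCGCNC on either strand. These letters occur in 39.6% of the promoters of tested genes and 29.3% of all promoters of 300 bases. The upstream part of the MT2A promoter, from RefSeq on GRCh38.p14, is shown because it holds 7 matches, marked in capitals.
MT2A, chr16:56608334-56608583, plus strand: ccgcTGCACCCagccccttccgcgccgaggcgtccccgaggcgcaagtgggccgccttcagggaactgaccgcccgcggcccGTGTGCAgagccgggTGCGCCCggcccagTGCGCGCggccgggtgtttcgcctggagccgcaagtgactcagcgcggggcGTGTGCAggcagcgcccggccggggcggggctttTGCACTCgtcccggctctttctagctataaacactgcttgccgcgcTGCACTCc

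Antioxidant genes rose more often than they fell, 21 against 4 of 34 tested, and 16 against 6 without the length trend. GPX3, a secreted glutathione peroxidase, rose from 7.63, 7.46 and 7.72 to 22.5, 21.9 and 20.1 (1.39 ± 0.0481, adjusted p = 9.35e-13) and PRDX4, the peroxidase of the endoplasmic reticulum, from 93.5, 94.6 and 103 to 149.7, 152 and 149.7 (0.63 ± 0.0357). GPX1, the main cytosolic glutathione peroxidase, had the strongest fall of all genes considered by the naming rule, from 10.9, 11.6 and 11.7 to 0.1, 0.04 and 0.15 (-3.50 ± 0.072). It passed the filter through WT only and was ranked by this fall, so the value is a description. The KO2 mean was 0.11. MGST3 fell (-0.84 ± 0.0408) and PRDX6 also fell; both lie in the chromosome 1 stretch. GCLM was the fourth gene that fell, named, like PRDX6, after its value was seen.

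Protein quality genes gave no single direction. Of 30 endoplasmic reticulum stress and XBP1 genes 13 rose and 6 fell (10 and 7 without the trend). CALR, the calreticulin chaperone, rose from 1209, 1228 and 1212 to 1538, 1569 and 1544 (0.35 ± 0.0286) and MANF by 0.45 ± 0.0437 (0.27 without the trend), while HERPUD1, of the degradation pathway, fell (-0.43 ± 0.0384) and ATF6, a stress sensor in the chromosome 1 stretch (-0.65 ± 0.0481). ATF4 and CHOP response genes fell in 14 and rose in 5 of 27 tested (18 and 4 without the trend). ATF3 went from 8.63, 8.04 and 8.54 to 2.89, 3.53 and 3.55 (-1.12 ± 0.0815, adjusted p = 8.34e-09), and the aminoacyl-tRNA synthetase genes WARS (-0.54 ± 0.0368) and GARS (-0.35 ± 0.0294) and the amino acid transporter SLC7A5 (-0.42 ± 0.0346) fell. For SLC7A5 the KO2 difference from WT was 0.06, and KO1 was below KO2 (log2 difference -0.48, adjusted p = 2.66e-08, limma-trend). Of 29 heat shock chaperone genes 9 fell and 5 rose, and 17 fell and 5 rose without the trend. With the trend 48.3% of them changed, beside 53.2% of all tested genes. HSF1, the heat shock factor, was lower (-0.24 ± 0.0534) and DNAJB1 higher by 0.18 ± 0.0348, or 0.09 without the trend.
Proteasome subunits rose in 21 and fell in 4 of 36 tested. Without the trend 9 rose and 9 fell, beside 23.8% and 24.5% of all tested genes. PSME1 rose from 91.9, 96.8 and 96.9 to 135, 131 and 134 (0.48 ± 0.0407, 0.30 without the trend), and PSMD4, in a chromosome 1 stretch, fell (-0.34 ± 0.0382). Of 30 genes of ribosome biogenesis, a MYC-driven programme, 10 fell and 4 rose, and 15 fell and 3 rose without the trend. With the trend 46.7% of them changed, beside 53.2% of all tested genes. NCL, nucleolin, fell from 565, 552 and 536 to 453, 438 and 456 (-0.30 ± 0.033, adjusted p = 1.47e-06), POLR1A, the largest subunit of RNA polymerase I (-0.48 ± 0.053, -0.27 without the trend), and MYC from 179.9, 187 and 185 to 158, 162 and 157 (-0.21 ± 0.0346, adjusted p = 9.45e-05). MYC lies in a run of 10 neighbouring tested genes, from TRIB1 to KHDRBS3, that all fell (median -0.37, in KO2 -0.11). A link between the fall of MYC and that of the programme was not tested. In autophagy and lysosome genes 12 of 22 rose and 2 fell (7 and 2 without the trend), among them the hydrolases HEXA (0.46 ± 0.0431), CTSB (0.51 ± 0.0587) and CTSD (0.43 ± 0.0447).

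Adhesion and matrix genes changed in 19 of 21 tested, 11 upward and 8 downward. TIMP1, an inhibitor of matrix proteases, rose from 18.2, 19.9 and 21.9 to 48.7, 47.95 and 45.8 (1.21 ± 0.0553, adjusted p = 2.96e-11). The galectin genes LGALS1 and LGALS3 rose, LGALS1 from 568, 624 and 643 to 1239.97, 1227 and 1212 (1.004 ± 0.0446) and LGALS3 from 29.2, 28.98 and 31.7 to 60.5, 64.4 and 61.5 (1.03 ± 0.0397).
Notch genes fell in 8 and rose in 2 of 12 tested, and fell in 5 and rose in 1 without the length trend. HEY1, a target gene of the pathway, went from 34.2, 32.9 and 34.4 to 11.3, 11.2 and 12.3 (-1.47 ± 0.0522, adjusted p = 1.16e-12). The receptor NOTCH2 fell from 16.97, 16.4 and 14.8 to 10.1, 10.5 and 10.8 (-0.57 ± 0.0565; -0.38 without the trend), and the ligand JAG2 (-0.34 ± 0.0471).
Of 19 DNA methylation and Polycomb genes 8 fell and 2 rose, so 52.6% changed, beside 53.2% of all tested genes. Without the trend 10 fell and 3 rose, beside 24.5% and 23.8% of all tested genes. SUZ12, a core Polycomb subunit, fell (-0.38 ± 0.0557) and DNMT1, the maintenance methyltransferase (-0.28 ± 0.0432), while the de novo enzyme DNMT3B rose by 0.42 ± 0.0557. FOXO factors and their targets split evenly, 6 up and 7 down of 17. FOXO3 fell from 44.99, 43.5 and 40.2 to 31.6, 30.7 and 33.3 (-0.42 ± 0.0473, adjusted p = 1.7e-06), and TXNIP, a brake on glucose uptake, rose from 7.03, 6.98 and 7.58 to 13.5, 14.4 and 14.2 (0.87 ± 0.051, adjusted p = 6.7e-10). Cancer-testis antigens rose in 13 and fell in 3 of 23 tested. Without the trend 5 rose and 6 fell, beside 23.8% and 24.5% of all tested genes. MAGEC2 stood at 27.3, 29.6 and 31.1 in WT and 55.97, 54.2 and 53.4 in KO1 (0.88 ± 0.0473).
Among markers of other cell types, 5 epithelial genes and 3 stromal or endothelial genes passed the filter. EPCAM, an epithelial adhesion molecule, rose from 1.87, 1.94 and 2.54 to 5.72, 5.47 and 5.53 (1.08 ± 0.093), while KRT18 (-0.50 ± 0.086) and ESRP1 (-0.88 ± 0.0765) fell; PECAM1 rose by 0.94 ± 0.0641 and THY1 by 0.65 ± 0.0985. The summed level of the epithelial list was 9.81 to 10.7 in WT and 10.6 to 11.7 in KO1, and that of the stromal and endothelial list 7.79 to 9.0 and 9.76 to 10.9. Their part in the adhesion and matrix changes was not tested.

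Many of the strongest changes were in genes outside these lists. EPHA3, an ephrin receptor kinase, fell from 45.3, 39.5 and 39.5 to 3.25, 3.03 and 3.36 (-3.33 ± 0.0644, adjusted p = 9.07e-16) and TSPAN7, a tetraspanin of the cell surface, from 23.5, 24.4 and 23.6 to 1.47, 1.66 and 1.54 (-3.28 ± 0.0773, adjusted p = 6.23e-15). For EPHA3 the KO2 mean was 12.3, and KO1 was lower than KO2 (log2 difference -1.66, adjusted p = 1.03e-11, limma-trend), while TSPAN7 had a KO2 mean of 0.99. Other strong falls were DOK5, an adaptor of receptor kinases (-2.34 ± 0.0989), AKAP12, a kinase scaffold (-2.30 ± 0.0732), ITM2A (-2.26 ± 0.0784), the potassium channel subunit KCNS3 (-2.07 ± 0.0736), the phospholipid-binding protein ANXA1 (-2.06 ± 0.103), the RNA-binding protein KHDRBS3 (-1.64 ± 0.0859), the actin-binding protein SVIL (-1.58 ± 0.0612) and C1orf226 (-1.52 ± 0.0846).
Strong rises included MLLT11, from 9.41, 8.32 and 9.42 to 45.01, 42.7 and 45.4 (2.18 ± 0.0499, adjusted p = 4.72e-15), DMKN (2.20 ± 0.0859) and the neuropeptide gene NPW (1.88 ± 0.0876). MLLT11 rose although it lies in a chromosome 1 stretch where most genes fell. MMP23B (2.55 ± 0.0682) and the keratin gene KRT86 (3.46 ± 0.0879) have near-identical copies, which makes their level uncertain. The rise of EIF3CL (1.77 ± 0.696, adjusted p = 0.0413) rests on libraries that scatter, 2.21, 6.82 and 0 in WT and 8.43, 12.3 and 7.01 in KO1, and on a gene with a near-identical copy; it was no longer called in 10 of the other settings tried, and it was 1.00 without WT replicate 3.

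Some genes were near zero in one group. They passed the filter through the other group only and were chosen by these values, so the values are a description. In 10 genes every WT library was below 0.5 and every KO1 library at 3 or more. SH3BGRL, which encodes a small adaptor-like protein, was listed at 0 in all WT libraries and at 21.5, 19.7 and 20.9 in KO1. HMGN5, a nucleosome-binding protein, was also listed at 0 in all WT libraries and stood at 5.67, 5.15 and 5.89 in KO1. ZNF257, ZNF100, ZNF208 and ZNF43 are zinc finger genes of a repressor family. They lie in a run of 8 neighbouring tested genes, from ZNF493 to ZNF675, that all rose (median 1.80, in KO2 1.78). ZNF257 had 0.06, 0 and 0.02 in WT and 8.55, 7.84 and 8.46 in KO1, and ZNF100 0.16, 0.2 and 0.05 and 6.74, 5.65 and 6.68. KRT81 and TUSC1 complete the group with KO2 levels close to those of KO1 (KO2 means 15.8 and 4.09). KRT81 is a near copy of KRT86, so its level is uncertain in the same way.
TMPRSS15 and PSMA8 differed from these. TMPRSS15, the gene of enteropeptidase, an enzyme of the gut lining, was listed at 0 in WT and at 4.89, 4.22 and 4.88 in KO1, with a KO2 mean of 0.067. PSMA8, a proteasome subunit known from testis, was listed at 0 in WT and at 4.38, 4.1 and 4.49 in KO1, with a KO2 mean of 0.01. KO1 exceeded KO2 by 2.41 and 2.40 (log2). Both genes passed the filter through KO1 only and were chosen by their KO1 values, so these differences are a description.
In the opposite direction 4 genes were below 0.5 in every KO1 library and at 3 or more in WT: GPX1 as above, KRBOX1 (3.46, 4.53 and 6 against 0, 0.09 and 0), the carboxypeptidase CPZ (3.89, 4.28 and 4.15 against 0.36, 0.17 and 0.28) and the retinoid receptor RXRG (3.36, 3.93 and 3.53 against 0.05, 0.08 and 0.08). KO2 means for these 3 were 0.58, 1.16 and 0.01.

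**Figure D4:**
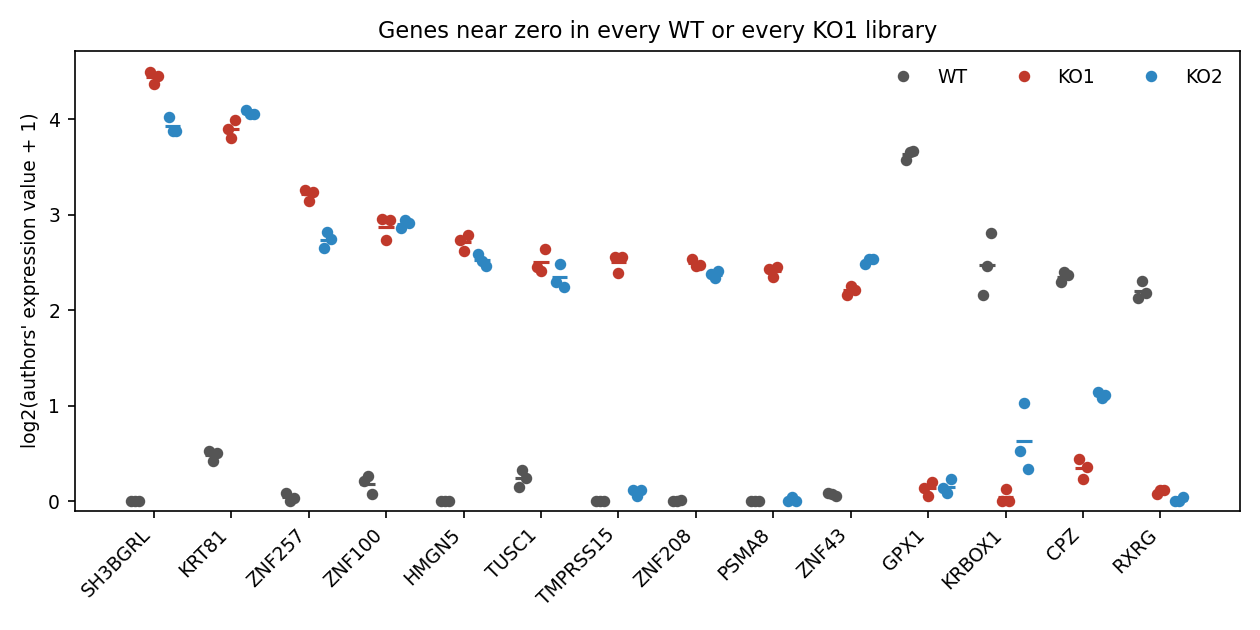
Expression as log2(value + 1) (y axis) of 10 genes near zero in every WT library and 4 near zero in every KO1 library; each point is 1 library and the bar the group mean. KO2 points sit with KO1 for all of these except TMPRSS15 and PSMA8, where they sit with WT, and CPZ and KRBOX1, where they lie between.

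Genes that neighbour each other on a chromosome moved together in 95 runs of 5 or more tested genes called in the same direction. Some of these runs lie inside 5 longer stretches. The stretches were defined after the values had been seen. Each holds at least 30 tested genes in gene order. Over these the running median of 25 genes stayed at a log2 difference of 0.25 or more from zero. Within a stretch, the KO1 counts and median follow largely from this rule, and comparisons with KO2 reuse the KO1 libraries that chose it. The longest ran from TUFT1 to CACYBP on the long arm of chromosome 1, where 158 of 176 tested genes fell and 4 rose, with a median of -0.45. From OTUD7B to POGZ, also on chromosome 1, 27 of 36 fell (median -0.33). Within the first stretch 38 genes in a row, from USF1 to TIPRL, all fell. KO2 fell over both as well, with medians of -0.64 and -0.49.
A stretch from ZNF24 to ADNP2 on chromosome 18 rose: 63 of 74 tested genes rose and none fell, with a median of 0.39. In KO2 its median was 0.03, and in the direct comparison 62 of the 74 genes were higher in KO1 than in KO2 and 1 was lower. TCF4, a transcription factor of B cells and plasma cells in this stretch, went from 22.8, 22.6 and 20.9 to 48.5, 46.3 and 50.6 (1.10 ± 0.0536, adjusted p = 7.06e-11) while KO2 had a mean of 22.5. ATP5F1A, an ATP synthase subunit, is another of its genes and rose from 357, 343 and 358 to 524, 513 and 539 (0.57 ± 0.0314), with a KO2 mean of 363.
From LOC112268260 to KLHL21, at the tip of the short arm of chromosome 1, 53 of 64 genes rose and none fell (median 0.34, in KO2 0.14). From RB1CC1 to COPS5 on chromosome 8, 23 of 30 fell (median -0.34, in KO2 -0.25). RRS1, a ribosome assembly gene in it, fell (-0.32 ± 0.0357). Together the stretches hold 380 genes (3.52% of those tested), 208 of the 2594 genes that fell (8.02%) and 124 of the 3150 that rose (3.94%). They hold 7 of the 82 genes that fell and 6 of the 64 that rose by 2-fold or more. Outside them 52.0% of genes changed. Coordinates are not given, because gene order was taken from a reference of another build than the one the submitters used.

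**Figure D5:**
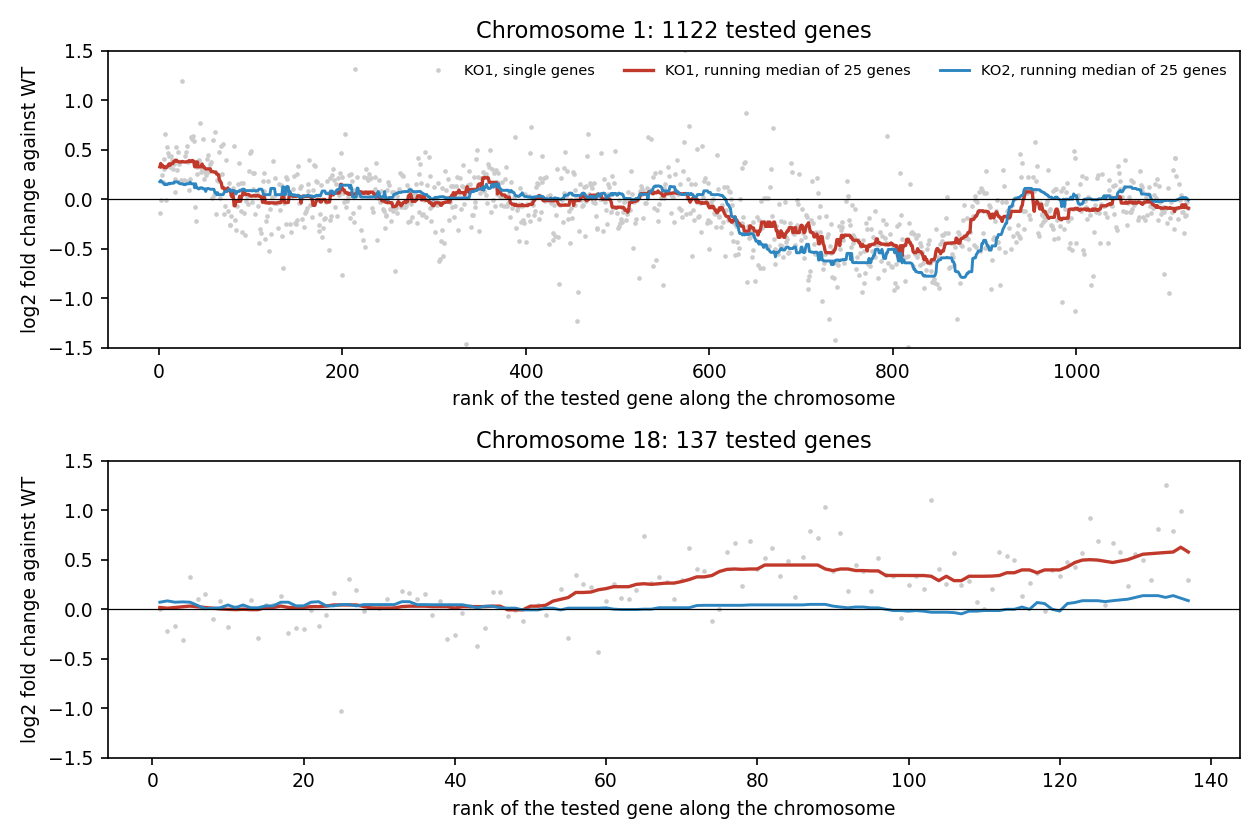
Log2 difference from WT (y axis) of tested genes in their order along chromosomes 1 and 18 (x axis, rank of the gene); grey points are single genes in KO1 and lines are running medians of 25 genes in KO1 and KO2. Both clones dip over the same part of chromosome 1, while only the KO1 line lies above 0.25 over the later part of chromosome 18; 6 and 2 genes fall outside the plotted range.

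Compared directly, KO1 and KO2 differed at 4569 of 10792 genes (42.3%), with 1885 higher in KO1 (17.5%) and 2684 lower (24.9%). The balance depended on scaling: when each library was shifted to the same median, 2508 were higher and 1907 lower, and without the length trend 1973 and 1889. The comparison of KO2 with WT, which uses the same WT libraries, had 4725 changed genes (43.8%), 3056 upward and 1669 downward.
Of the genes above both WT and KO2 in KO1, PDIA2, a pancreatic protein disulphide isomerase, went from 23.9, 22.7 and 24.4 in WT to 106, 105 and 103 in KO1 (2.10 ± 0.0529, adjusted p = 1.45e-14), with 18.5 in KO2. ADAMTS17, a secreted protease, went from 1.96, 1.99 and 1.67 to 12.5, 12.4 and 12.1 (2.22 ± 0.0726), with 4.53 in KO2, and AEBP1 from 8.5, 8.05 and 8.36 to 23.5, 25.1 and 23.4 (1.43 ± 0.0499), with 11.9 in KO2. No KO1 library of these overlapped the WT libraries.
Of the genes below both, IAH1, an esterase, fell from 10.4, 12.9 and 14.7 to 2.03, 1.43 and 1.64 (-2.33 ± 0.0958, adjusted p = 7.9e-12), while KO2 had 15.7. PHF3, a regulator of transcript elongation, fell from 10.3, 9.33 and 9.99 to 4.2, 3.89 and 3.82 (-1.13 ± 0.068), with 9.48 in KO2, PRKAR2B, a regulatory subunit of protein kinase A, from 8.29, 7.35 and 7.62 to 3.17, 3.24 and 3.45 (-1.03 ± 0.0617), with 6.68 in KO2, and RAB15 from 25.6, 29.3 and 27.7 to 13.3, 13.5 and 13.02 (-0.998 ± 0.0509), with 25.04 in KO2. ITM2A and AKAP12 belong to this group too, with log2 differences of KO1 from KO2 of -1.48 and -1.32.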

How the data were processed

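RNA of 12 Delta47 libraries (WT, KO1, KO2, KO2R, 3 each) was used; the submitters selected poly-A RNA and sequenced it on a DNBSEQ instrument, per the labels' protocols. The deposited values are treated as a signal, because the table names no unit; the submitters' processing notes name hg19, and no source used here gives the aligner or counter. With no counts, depth is unknown. Of the table's value columns 3 matched no single sample and were not used, so the empty-vector group was not analysed here; columns marked R were read as KO2R, the Delta47 group whose labels carry that letter. Symbols turned into dates (24) were renamed by gene ID, and 17038 of 17286 IDs matched RefSeq.

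Genes at 1 or more in at least 3 of the 6 WT and KO1 libraries were fitted as log2(value + 1), with no further scaling, by limma-trend (limma 3.58.1, R 4.3.3) over the 4 groups (8 residual degrees of freedom), two-sided, with Benjamini-Hochberg adjustment over 10792 genes. Errors after ± are the standard errors of the fit. The script was tested on simulated data. Transcript lengths came from GENCODE and gene order from RefSeq, by symbol and gene ID.

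The comparison, the gene lists and the naming rule were chosen with earlier results of these data known. The rule names a set of fixed genes, the 14 strongest rises and 14 strongest falls (called, libraries not overlapping, a group mean of 5 or more), genes near zero in 1 group, up to 4 members per list by smallest adjusted p, up to 8 genes each way that differ from WT and KO2 alike or go opposite ways in the clones, and runs of neighbours. Some genes that the rule names are not reported here. Length correction and the neighbour stretches were added after the data were seen. Alternatives varied the pseudocount, filter, scaling, fit and libraries.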

Additional observations from a re-analysis of the deposited data

Results flagged for a closer look

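For 8 genes KO1 and KO2 changed in opposite directions from WT, each called by limma-trend. These are the members of 249 such genes with the greatest difference between clones. Since they were chosen for that difference, the values of KO1 against KO2 are a description, and their passing the test adds no support. Both differences from WT use the same WT libraries. The membrane protein gene IFITM1 was above KO2 by 2.92 (log2), PDIA2, a disulphide isomerase, by 2.44, and WNT10A, a secreted Wnt ligand, by 2.17. WNT10A stood at 1.14, 1.07 and 1.04 in WT and 4.46, 4.27 and 4.51 in KO1, with a KO2 mean of 0.207. The RNA sensor OAS1 was higher in KO1 by 1.82, the adaptor SH2D3C by 1.52 and TP53I11 by 1.5. TP53I11 rose little over WT, from 49.6, 53.3 and 54.01 to 60.8, 64.7 and 58.2, and had a KO2 mean of 20.9. The esterase gene IAH1 was lower in KO1 than in KO2, at -2.63, as was the protease gene PRSS23, at -1.65. PRSS23 had 5.95, 4.93 and 4.84 in WT and 1.93, 1.89 and 2.01 in KO1, with a KO2 mean of 8.23.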

How the results depend on the processing

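Over all alternatives tried, the number of genes changed between KO1 and WT stayed between 4656 (value of 5 or more in 3 libraries) and 6115 (no filter on low values) beside 5744, and between KO1 and KO2 between 3719 and 5010 beside 4569. Leaving out 1 library gave 5043 to 5446 and 3719 to 4009. FOXM1 fell under each, with log2 differences from -0.85 to -0.92. Replicate numbers did not pair the samples (correlations of same-numbered libraries 0.094, 0.15 and -0.0995), and the replicate block gave 5678 and 4451 calls. Of 189 named genes under these settings, 2782 of 2807 gene and setting pairs kept direction and side of the threshold. Both genes whose sign turned were not called: AURKA was -0.0155 under quantile scaling, -0.0079 without KO1 replicate 1, -0.0109 to 0.0574 over all fits that left out 1 library (lowest without WT replicate 3) and -0.0734 without the length trend, and BCL2 was 0.0173 without KO1 replicate 2, 0.0173 without WT replicate 1, -0.0515 to 0.0173 over all fits that left out 1 library and 0.1151 without the length trend. TOP2A was called without the length trend (0.13). In 17 pairs a call was lost, 10 of them of EIF3CL. At a pseudocount of 0.1 the log2 fold change of 21 named genes grew by over 1.5 times. The unit is unnamed and depth unknown, so the precision of low values cannot be given. Each knockout is 1 clone, so no p-value here measures a spread between clones.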
